A study of Sus scrofa with 9 samples.

Results

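The mature microRNAs (miRNAs) of pig spleen were compared between postnatal day 90 and postnatal day 30. The animals were Ningxiang pigs, an indigenous Chinese breed, and each age was represented by 3 small RNA libraries. The tissue label gives spleen and no sorted cell fraction, and no treatment, genotype or sex is stated. Every row that carried the name of a pig miRNA was taken, which gave 452 entries of 974 in the table after repeats were dropped, and the other entries were sequences predicted by the authors. Day 210, also with 3 libraries, entered only the estimate of the spread and the filter on low values. The labels do not say whether each library is a separate pig, and the p-values therefore speak of the spread among these libraries alone, which may be technical.

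miRNAs are short RNAs cut from a hairpin precursor and loaded into Argonaute proteins. Bases 2 to 8 of the mature strand, the seed, pair with target messenger RNAs, which are then translated less and degraded faster, so miRNAs with the same seed can bind overlapping sets of targets. Each hairpin can give a strand from its 5p arm and another from its 3p arm, and usually 1 of them is kept more often. The spleen filters blood and houses B and T lymphocytes in its white pulp, macrophages and red cells in its red pulp, and smooth muscle, fibroblasts and endothelium in its capsule, trabeculae and vessels. Several miRNAs are well known from these cells, among them miR-150 in mature lymphocytes, miR-155 and miR-146 in activated immune cells, miR-142 in blood cells at large, miR-451 and miR-486 in red cells, and miR-143 and miR-145 in smooth muscle.

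The miRNAs on which the comparison turned are printed here 5′ to 3′ as the deposited table gives them, with T for U and with the seed in capitals. The first 10 are the 7 that passed the test, the relatives of miR-29a-3p that carry its seed, and the neighbour of miR-452 in the genome.
miR-29a-3p: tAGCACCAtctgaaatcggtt
miR-29b: tAGCACCAtttgaaatcagt
miR-29c: tAGCACCAtttgaaatcggtt
miR-150: tCTCCCAAcccttgtaccagtg
miR-184: tGGACGGAgaactgataagggt
miR-452: aACTGTTTgcagaggaaactga
mir-452-p3: tCAGTCTCaactgcaaagaagt
miR-224: cAAGTCACtagtggttccgttt
miR-323: gCACATTAcacggtcgacctct
mir-325-p3: tTTATTGAgcacctcctatca

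A second set shows the immune miRNAs and the members of a shared seed that went different ways. miR-146a-5p and miR-146b carry the same seed, and so do the last 6 sequences, which belong to the miR-15/16 group and to the arm of miR-424 that matches it.
miR-146a-5p: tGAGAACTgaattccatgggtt
miR-146b: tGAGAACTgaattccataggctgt
miR-155-5p: tTAATGCTaattgtgataggggt
miR-15a: tAGCAGCAcataatggtttgtg
miR-15b: tAGCAGCAcatcatggtttaca
miR-16: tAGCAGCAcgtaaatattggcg
miR-195: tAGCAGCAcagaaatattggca
miR-497: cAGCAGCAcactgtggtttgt
miR-424-5p: cAGCAGCAattcatgttttga

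The values are the authors' normalised read numbers per mature sequence, scaled per library by the authors. Depth was read from the table on the assumption that the commonest low value of a library stands for 5 reads, which gave 6.75, 6.64 and 9.34 M reads (M, mega) at day 90 and 7.33, 6.97 and 9.02 M at day 30. On that footing a value of 3.80 to 5.08 at day 90 and of 3.62 to 4.77 at day 30 stands for 5 reads, and most sequences with fewer are listed at 0. Named pig miRNAs held between 99.4% and 99.5% of each library's values. The libraries ranked the entries alike, with Spearman's rho of 0.967 to 0.972 within day 90, 0.954 to 0.974 within day 30 and 0.942 to 0.962 between the ages, a description across entries and not across animals.

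Of the 452 pig miRNAs, 445 had a value above 0 in at least 1 of the 6 libraries and 366 had one in each of the 6. The 6 most abundant were miR-26a and miR-191, the smooth muscle miRNAs miR-143-3p and miR-145-5p, miR-30d and miR-99a-5p. Together they held 42.9%, 42.7% and 45.2% of the values in the day 90 libraries and 43.6%, 42.8% and 43.5% in the day 30 libraries. The sum covers shares on both sides. miR-26a, which is found in most tissues, made up 15.1% of the values at day 90 and 13.6% at day 30. miR-191 made up 8.48% at day 90 and 6.99% at day 30, with a log2 fold change of 0.34 ± 0.16 (SE) that did not pass the test (adjusted p = 0.366). miR-143-3p made up 10.6% at day 90 and 12.4% at day 30, and miR-145-5p 2.71% at day 90 and 3.69% at day 30. limma called 0 of these 6, and 1, miR-145-5p, had an unadjusted p under 0.05.

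Differences were tested with limma on log2(value + 1), with p-values adjusted by Benjamini-Hochberg over all 630 entries tested and called at an adjusted p under 0.05. Of the 406 pig miRNAs tested, 5 rose and 2 fell. Over all 630 entries, with the candidates included, the share called was 1.11% (0.794% higher and 0.317% lower), and no candidate was called. The pig miRNAs that rose were miR-29a-3p, miR-150, miR-184 and both arms of miR-452, and those that fell were miR-323 and mir-325-p3. A log2 fold change is the difference of day 90 minus day 30 on the log2(value + 1) scale. The added 1 understates the change of low entries whose values are all above 0. For entries listed at 0 in some libraries the size depends on the number added and may be overstated, since 0 can stand for a few reads.

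miR-29a-3p, which is known for targeting collagen and other matrix transcripts, had normalised values of 72396, 76069 and 73854 in the day 90 libraries, against 38355, 31813 and 35198 in the day 30 libraries. The lowest day 90 library lay far above the highest day 30 library. It averaged 74106 ± 1849.7 at day 90 and 35122 ± 3272 at day 30 (SD, n = 3 each), a 2.12-fold higher level (log2 fold change 1.08 ± 0.11, limma adjusted p = 0.00175). Its share of all values was 1.1% at day 90 and 0.545% at day 30. It was the only one of the 7 that was called in each of the 24 alternatives tried, with adjusted p between 7.84e-04 and 0.0222 when a library was left out.

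miR-150, an abundant miRNA of mature B and T lymphocytes, had values of 86999.6, 82724 and 70529 at day 90, against 43758, 47577 and 51779 at day 30. The 3 day 90 libraries all lay above the 3 day 30 libraries. The means were 80084 ± 8547 at day 90 and 47705 ± 4012 at day 30 (SD, n = 3 each), a 1.68-fold higher level (log2 fold change 0.75 ± 0.12, limma adjusted p = 0.0190). It was called in 17 of 24 alternatives, and leaving out any 1 of the day 30 libraries, or day 90 replicate 1 or 2, raised its adjusted p over the threshold, to 0.136 at most.

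miR-184, best known from the cornea and from neurons, is a scarce miRNA in these libraries. Its values were 379, 284 and 246 at day 90, against 23.8, 73.4 and 49.96 at day 30. The groups did not overlap, and the lowest day 90 library held more than 3 times the value of the highest day 30 library. The means were 303 ± 68.5 at day 90 and 49.1 ± 24.9 at day 30 (SD, n = 3 each), a 6.57-fold higher level (log2 fold change 2.72 ± 0.40, limma adjusted p = 0.0122). It lost its call without day 30 replicate 3 and without day 90 replicate 1 or 2, with adjusted p up to 0.102.

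miR-452 and its precursor's other strand, mir-452-p3, were listed at 0 in the 3 day 30 libraries. miR-452 had values of 20.1, 19.3 and 13.7 in the day 90 libraries (limma adjusted p = 0.0106), and mir-452-p3 had 14.4, 16.3 and 19.004 (adjusted p = 0.0286). These were the only 2 pig miRNAs listed at 0 in all day 30 libraries and above 0 in all day 90 libraries. The other way round there were 4, miR-105-1, mir-324-p3_1ss20GA, miR-9858-5p and mir-10384-2-p3, named for that reason, with values of 2.17 to 12.3 at day 30, of which 2 were too low to be tested and the other 2 were not called. No fold change is given because the value at day 30 is not known beyond the listing at 0, and both rest on few reads. miR-452 was not called without day 90 replicate 1 or 2, with adjusted p up to 0.102, and mir-452-p3 was not called when any 1 of the day 30 libraries was left out, with adjusted p up to 0.131. mir-452-p3 passed the filter on low values only through its 3 day 90 libraries, so it had to differ, and it could not be tested without any 1 of them. It was called in 15 of the 19 alternatives that tested it.

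miR-224 has its hairpin beside that of miR-452, and RefSeq's gene table for the pig assembly Sscrofa11.1 places both inside GABRE, the gene of the epsilon subunit of the GABA-A receptor. It had values of 32.6, 50.8 and 33.4 at day 90, against 7.64, 6.68 and 4.34 at day 30. All day 90 libraries lay above all day 30 libraries, but with a log2 fold change of 2.47 ± 0.55 the adjusted p was 0.0857. At day 210, mir-452-p3 and miR-224 were listed at 0 in all 3 libraries, and miR-452 had values of 5.33, 6.46 and 8.001, each the value taken to stand for 5 reads in its library. All 3 entries of this locus were called when only the day 90 and day 30 libraries were fitted. In that fit both miR-452 strands passed the filter only through their 3 day 90 libraries, so they had to differ.

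miR-323, an miRNA of the imprinted DLK1-DIO3 region, had values of 145, 208 and 162 at day 90, against 468, 336 and 565 at day 30. The highest day 90 library stayed below the lowest day 30 library. Its mean was 172 ± 32.9 at day 90 and 456 ± 115 at day 30 (SD, n = 3 each), and it fell by 1.39 ± 0.26 on the log2 scale (limma adjusted p = 0.0330). mir-325-p3 fell by 2.89 ± 0.56 on the log2 scale (limma adjusted p = 0.0427), with values of 6.71, 5.08 and 18.2 at day 90, against 71.3, 69.6 and 71.7 at day 30. Its day 30 libraries were nearly equal and its day 90 libraries were all low. miR-323 was called in 16 and mir-325-p3 in 15 of 24 alternatives, and adjusted p rose to 0.257 for miR-323 and to 0.265 for mir-325-p3 when 1 library was left out.

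**Figure D1:**
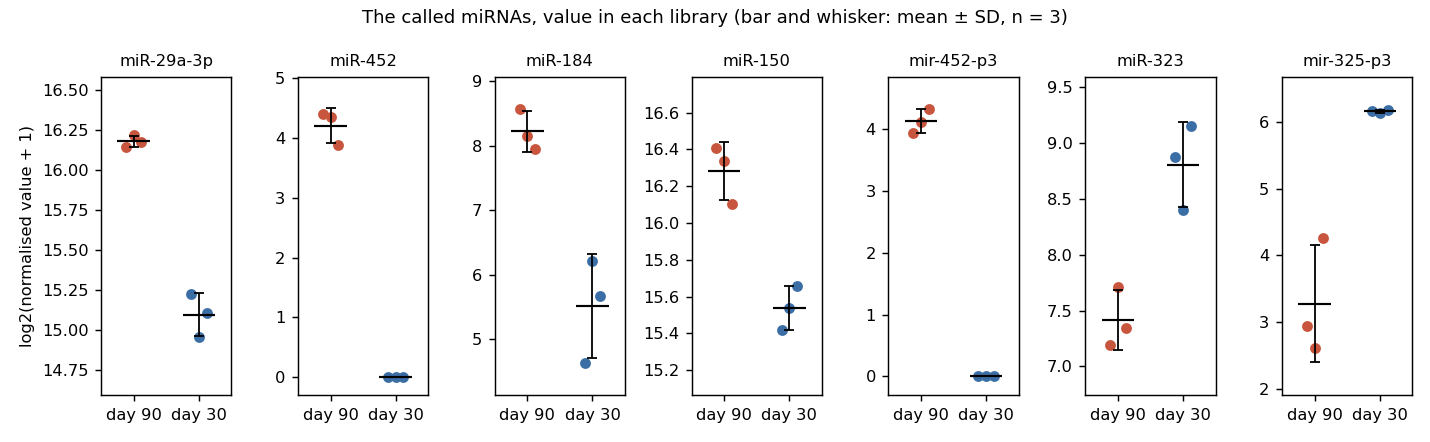
Normalised values, as log2(value + 1), of the 7 called miRNAs in each library, with day 90 left of day 30. Points are libraries and bars are the mean ± SD of 3. In each panel the day 90 points lie on 1 side of all day 30 points, and both strands of miR-452 sit at 0 at day 30.

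The wider picture was one of small differences around a centre near 0. Log2 fold changes were positive for 199 and negative for 206 of the 406 pig miRNAs tested, with a median of -0.01, beside -0.04 over all 630 entries. The libraries of the ages did not overlap for 70 pig miRNAs that were higher and 65 that were lower at day 90, while over all entries tested the share was 14.1% higher and 13.8% lower. At an unadjusted p under 0.05 there were 43 higher and 36 lower pig miRNAs, against 7.78% higher and 7.46% lower of all entries. These shares, and the 1.11% called by limma, are the background for the counts of each list below. Among the 299 pig miRNAs with a mean of at least 50 in the 6 libraries, 8 were more than 2-fold higher and 8 were more than 2-fold lower.

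The size and the certainty of a difference depended on the level. The 95 pig miRNAs with a mean of at least 5000 had a median SE of 0.17 on the log2 scale and a median absolute log2 fold change of 0.24, and 2 of them were called. Among the 88 with a mean from 500 to 5000 the median SE was 0.22, and limma called 0, though an unadjusted p under 0.05 was found for 12. The median SE was 0.32 for the 116 with a mean from 50 to 500, of which 2 were called, and 0.66 for the 90 with a mean from 5 to 50, of which 3 were called. A 2-fold difference was thus many SEs wide for an abundant miRNA and less than 2 SEs wide for a typical one below 50. The 46 pig miRNAs that did not pass the filter had means of at most 5.05 and held 0.00096% of the values, and 2 of them had groups that did not overlap.

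**Figure D2:**
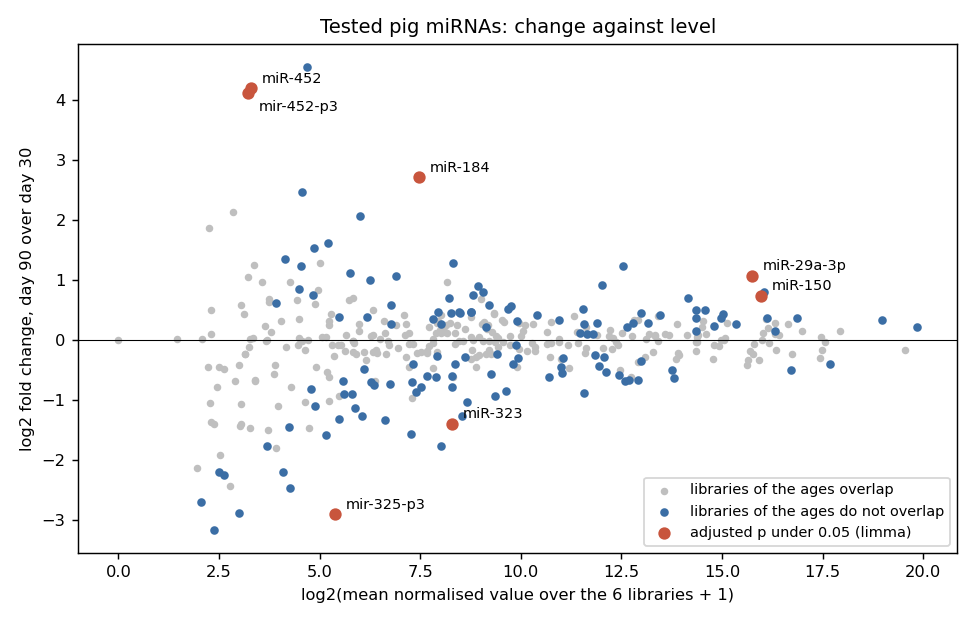
Log2 fold change (day 90 minus day 30) of the 406 tested pig miRNAs against the log2 of their mean level. Grey points have overlapping groups, blue points have none, and red points are the 7 called. The spread widens to the left, where the place of both miR-452 strands depends on the added 1 and values rest on few reads, and among the 95 miRNAs with a mean of at least 5000 only 2, miR-29a-3p and miR-146b, lie beyond 2-fold.

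When the fit used only the 6 libraries of these ages, in place of a spread estimated over all 9, many more miRNAs passed the threshold. It called 16 pig miRNAs higher and 12 lower of 398 tested (over all entries of that fit 2.9% higher and 2.04% lower). The 7 miRNAs called with 9 libraries were among these 28, and in each of the 28 the libraries of the ages did not overlap. The overlap was judged on the same 6 libraries as the fit, so it is not separate support. The count with 9 libraries also moved with single libraries. The calls were 3 higher and 0 lower without day 30 replicate 1, 3 and 1 without day 30 replicate 2, and 2 and 0 without day 30 replicate 3. They were 1 and 0 without day 90 replicate 1 and again without day 90 replicate 2, and 8 and 3 without day 210 replicate 2 and 12 and 7 without day 210 replicate 3.

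The miR-29 family had 6 of its 7 entries tested. All 3 strands with the AGCACCA seed had higher values at day 90, with no overlap between the ages, and their median log2 fold change was 1.08. Of the 13 seeds shared by at least 3 tested pig miRNAs this was the largest median. miR-29c had values of 582, 563 and 733 at day 90, against 485, 237 and 321 at day 30 (log2 fold change 0.90 ± 0.32, limma adjusted p = 0.220). miR-29b, chosen with the sequences after its values were seen, had 181, 126 and 168 at day 90, against 104, 45.8 and 83.6 at day 30 (1.08 ± 0.41, adjusted p = 0.261). Neither passed the test.

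The 5p strands of the family were looked up after the values of the 3p strands were seen. mir-29c-p5 had values of 419, 401 and 434 at day 90, against 435, 333 and 337 at day 30 (log2 fold change 0.19 ± 0.25). mir-29b-2-p5 had 286, 267 and 257 at day 90, against 274, 244 and 227 at day 30 (log2 fold change 0.12 ± 0.18). Both overlapped between the ages, and the difference between the arms was not tested. mir-29b-1-p5, from the other miR-29b hairpin, was at the edge of detection, with 8.63, 7.12 and 0 at day 90, against 6.79, 4.77 and 3.62 at day 30 (-0.47 ± 0.98), and miR-29a-5p was too low to be tested. Over the 6 entries 1 was called, beside 1.11% of all entries, and 3 had groups apart, all higher, beside 14.1% of all entries. The median log2 fold change was 0.55, beside -0.04 over all entries. Leaving out day 30 replicate 2 gave 0.39. Without day 30 replicate 1 or day 90 replicate 1 or 2, mir-29b-1-p5 no longer passed the filter. The medians without these libraries, 1.15, 0.95 and 0.97, rest on the remaining entries and are not comparable with 0.55. The summed share of the family was 1.14%, 1.15% and 1.06% in the day 90 libraries, against 0.637%, 0.492% and 0.554% in the day 30 libraries, and nearly all of it was miR-29a-3p.

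The list of lymphocyte and immune activation miRNAs had 14 entries tested, of which 1 was called (miR-150), beside 1.11% over all entries. Without overlap 6 were higher and 1 was lower, beside 14.1% higher and 13.8% lower over all entries tested. The median log2 fold change was 0.21, and 0.35 without day 30 replicate 2. Their summed share of all values was 5.63%, 5.56% and 4.95% in the day 90 libraries, against 4.13%, 4.23% and 4.42% in the day 30 libraries, and the groups did not overlap. In whole spleen a shift in the number of cells of a type and a shift in the RNA per cell cannot be told apart.

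miR-155-5p, which is made from the BIC transcript in activated B and T cells and macrophages, had values of 6001, 4691 and 5489.9 at day 90, against 3070.4, 2497 and 2949.5 at day 30. The groups were well apart, with a log2 fold change of 0.92 ± 0.22, but the adjusted p was 0.107. miR-146a-5p, an NF-kappaB induced miRNA that targets TRAF6 and IRAK1, had 72140.4, 82731 and 102978 at day 90, against 46098, 43596 and 56359 at day 30 (0.81 ± 0.22, adjusted p = 0.156).

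miR-146b, from another locus with the same seed, had 10089.6, 7930.5 and 7052 at day 90, against 3423, 2759.8 and 4535 at day 30 (log2 fold change 1.24 ± 0.35, limma adjusted p = 0.156). mir-146b-p3 from its hairpin went the same way, with 125, 96.6 and 72.98 at day 90, against 10.2, 16.2 and 61.5 at day 30 (2.08 ± 0.64, adjusted p = 0.164). In both miR-146b strands, and in miR-146a-5p and miR-155-5p, each day 90 library exceeded each day 30 library. miR-155-5p, miR-146a-5p and miR-146b were called in the fit of the 6 libraries, with adjusted p of 0.0129, 0.0211 and 0.0141.

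Not every lymphocyte miRNA went that way. miR-342, from an intron of EVL and well known from B and T cells, was chosen after its values were seen as the member that ran opposite to miR-150. It had 58513, 49392 and 47060.1 at day 90, against 58332, 59775 and 63137 at day 30 (log2 fold change -0.23 ± 0.12, limma adjusted p = 0.392), and the groups overlapped by 1 library. miR-181a, which tunes T cell receptor signalling in the thymus, had a log2 fold change of 0.27 ± 0.13 with overlapping groups (adjusted p = 0.393).

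The blood cell list held miR-142 and miR-223. Its 4 entries all had positive log2 fold changes, with a median of 0.55. Groups were apart, and higher, in 1 of them, beside 14.1% of all entries. The median was 0.15 without day 30 replicate 2, against 0.43 to 0.80 without any 1 of the other libraries. limma called 0, and 1 was higher at an unadjusted p under 0.05, beside 7.78% of all entries. mir-142-p5, found across the white blood cells, had values of 23106, 18992 and 25601 at day 90, against 16511, 10765 and 14342 at day 30 (0.71 ± 0.28, adjusted p = 0.263). miR-223, the granulocyte and monocyte miRNA, had 9397, 7856 and 8188 at day 90, against 9362, 4946 and 6383 at day 30 (0.34 ± 0.22, adjusted p = 0.516), so day 30 replicate 1 reached the day 90 range.

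The red cell miRNAs leaned to lower values at day 90. Of 4 entries tested limma called 0 and 3 were lower without overlap, beside 13.8% of all entries. The median log2 fold change was -0.71. At an unadjusted p under 0.05, 2 of the 4 were lower, beside 7.46% of all entries. miR-486, from an intron of the ankyrin gene ANK1, had 5179, 6239 and 6366 at day 90, against 9799, 9177 and 9201 at day 30 (-0.67 ± 0.21, adjusted p = 0.169, and 0.0202 in the fit of the 6 libraries). The 3 day 90 libraries of miR-486 all lay below the 3 day 30 libraries.

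miR-144, driven by GATA1 in red cell precursors, had 37.4, 37.6 and 37.2 at day 90, against 86.6, 73.4 and 55.02 at day 30 (log2 fold change -0.90 ± 0.35, limma adjusted p = 0.265). Its other arm, mir-144-p5, looked up after the values were seen, had 59.4, 48.8 and 69.2 at day 90, against 148, 91.6 and 71.7 at day 30. miR-451, its neighbour in the genome and the most abundant red cell miRNA here, ran unlike them. It had 11432, 9040.04 and 16633 at day 90, against 13737, 6113 and 8809 at day 30 (0.41 ± 0.49, adjusted p = 0.798), and its groups overlapped fully. miR-451 is matured by Argonaute 2 without Dicer, unlike miR-144. The summed share of the red cell list was 0.258%, 0.228% and 0.325% at day 90, against 0.382%, 0.232% and 0.278% at day 30, with overlap.

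The AGCAGCA seed of the miR-15/16 group, known for restraining cyclins and BCL2, was carried by 6 tested miRNAs. Positive log2 fold changes were found for 5 of them and the median was 0.32. miR-195 had 887, 853 and 1393 at day 90, against 790.1, 593 and 681 at day 30 (0.57 ± 0.23, limma adjusted p = 0.271). miR-16 had 9067, 8856 and 9869 at day 90, against 8190, 5438 and 6962 at day 30 (0.45 ± 0.26, adjusted p = 0.461). Each of these had groups apart by a narrow margin.

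miR-497, whose hairpin lies beside that of miR-195, had 1817, 2078 and 2715 at day 90, against 1809, 1645 and 1712 at day 30 (log2 fold change 0.34 ± 0.16). miR-15b, the most abundant of the 6, was close to level, with 27847, 25601 and 23627 at day 90, against 23922, 24497 and 23281 at day 30 (0.10 ± 0.11, limma adjusted p = 0.771). The one with a negative log2 fold change was miR-424-5p, which had 18.2, 13.2 and 26.6 at day 90, against 27.2, 30.5 and 44.2 at day 30 (-0.80 ± 0.44, adjusted p = 0.434). It was also the scarcest of the 6. The miR-15/16 list by name adds the other strands and leaves out miR-424. In it limma called 0 of 10, and 2 had an unadjusted p under 0.05. Of the 10, 4 were higher without overlap, beside 14.1% of all entries, and the median was 0.39. mir-15b-p3 was 1 of these 4 (0.48 ± 0.21, adjusted p = 0.317).

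The cluster that holds miR-424, miR-503, the miR-450 hairpins and miR-542, on the X chromosome in mammals, leaned lower. Of 8 entries tested 7 had negative log2 fold changes and 6 were lower without overlap, beside 13.8% of all entries. The median was -0.87 (between -1.12 and -0.73 when 1 library was left out). limma called 0, with 4 lower and 1 higher at an unadjusted p under 0.05, beside 7.46% lower and 7.78% higher over all entries. miR-424-3p had 27.8, 24.4 and 22.04 at day 90, against 61.1, 60.1 and 68.1 at day 30 (-1.32 ± 0.30, adjusted p = 0.0857). miR-450b-5p had 39.3, 27.4 and 49.4 at day 90, against 89.96, 81.1 and 104.98 at day 30 (-1.26 ± 0.37, adjusted p = 0.156). In both, the day 90 libraries sat well below those of day 30.

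miR-450c-5p had 208, 236 and 241 at day 90, against 350.5, 357 and 480.4 at day 30 (log2 fold change -0.78 ± 0.23, limma adjusted p = 0.156). miR-450a, added after its values were seen, had 129.9, 123 and 143 at day 90, against 184, 209 and 304 at day 30 (-0.78 ± 0.28, adjusted p = 0.224). miR-450b-5p, miR-450c-5p and miR-424-3p were called in the fit of the 6 libraries. The exception in the cluster, picked out on its values, was miR-542-5p, at the edge of detection with 4.79, 8.13 and 4.56 at day 90, against 0, 0 and 5.07 at day 30.

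The DLK1-DIO3 region is an imprinted locus whose long RNA from the maternal chromosome carries many miRNA hairpins, many of them abundant in the fetus and in brain and muscle. Of its 24 named entries 22 were tested, and 20 had negative log2 fold changes, beside 336 of all 630 entries. 1 was called lower (miR-323), beside 0.317% of all entries. Without overlap 9 were lower and 0 were higher, beside 13.8% lower and 14.1% higher over all entries. At an unadjusted p under 0.05 there were 7 lower and 0 higher, beside 7.46% lower and 7.78% higher over all entries. The median log2 fold change was -0.90, the lowest among the lists with at least 3 tested entries, and it ran between -1.24 and -0.65 when 1 library was left out. The cluster held 0.101%, 0.140% and 0.107% of the values in the day 90 libraries, against 0.238%, 0.152% and 0.215% in the day 30 libraries.

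Day 30 replicate 2 stood below its group here. It was the lowest of the day 30 libraries in 20 of the 22 entries, and without it the median was -1.24. miR-370 had 177, 250.1 and 219.7 at day 90, against 695, 457 and 426 at day 30 (log2 fold change -1.26 ± 0.31, limma adjusted p = 0.119, and 0.0202 in the fit of the 6 libraries). miR-127, which lies antisense to the imprinted gene RTL1 and is the most abundant of the cluster, had 3821, 6036 and 4483 at day 90, against 7646, 6350.3 and 8587 at day 30 (-0.67 ± 0.23, adjusted p = 0.220). Both were lower without overlap, miR-127 by a narrow margin at day 30 replicate 2.

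miR-758, miR-432-5p and mir-494-p3 were added after their values were seen, as further entries with lower values at day 90. Other miRNAs of the region shifted less and are named for that reason. Among them were miR-381-3p (mean 954 over the 6 libraries, log2 fold change -0.45 ± 0.40) and miR-411 (mean 241, -0.20 ± 0.29). miR-758 had 363, 533 and 438 at day 90, against 1222, 631 and 762 at day 30 (log2 fold change -0.93 ± 0.33). miR-432-5p had 10.5, 17.3 and 20.5 at day 90, against 67.0, 24.8 and 68.8 at day 30 (-1.58 ± 0.52). mir-494-p3 had 504, 639 and 503 at day 90, against 1375, 648 and 1072 at day 30 (-0.85 ± 0.35), so its day 30 replicate 2 stood next to the day 90 libraries. miR-758, miR-432-5p and mir-494-p3 did not pass limma's test, with adjusted p of 0.220, 0.214 and 0.283.

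**Figure D3:**
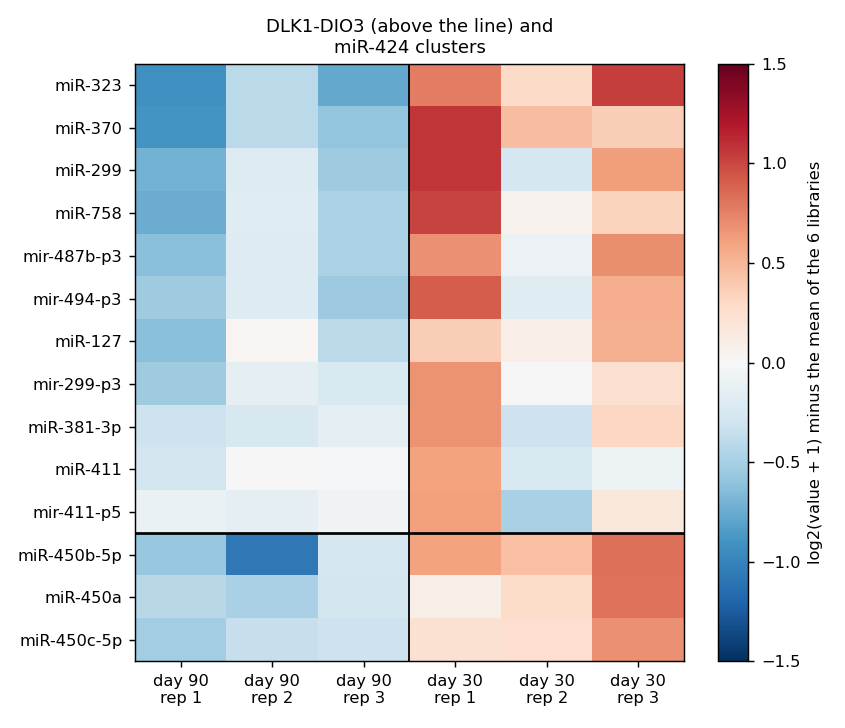
Heat map of the DLK1-DIO3 entries (above the line) and the miR-424 cluster entries (below it) with a mean of at least 50 over the 6 libraries, as log2(value + 1) minus the mean of the 6 libraries shown, with the day 90 columns left of the day 30 columns. Most rows are low in the 3 day 90 columns, and day 30 replicate 2 is the palest of its group in most of the upper rows.

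The median of the smooth muscle and fibroblast list had the opposite sign to that of the lymphocyte and immune activation list (0.21). Single members did not all follow, and the lymphocyte miR-342 had a negative log2 fold change (-0.23). The smooth muscle and fibroblast list had 7 negative log2 fold changes among 9 entries and a median of -0.16, which was -0.09 without day 90 replicate 1 or 2 and -0.31 without day 90 replicate 3. 3 entries were lower and 0 higher without overlap, beside 13.8% lower and 14.1% higher over all entries. limma called 0, with 3 lower at an unadjusted p under 0.05, beside 7.46% of all entries. The smooth muscle and fibroblast list held 14.04%, 13.4% and 17.3% of the values at day 90, against 18.2%, 17.4% and 18.1% at day 30. This share was lower, and that of the lymphocyte and immune activation list higher, in the same day 90 libraries. Shares of one total are not independent of each other. The part of this shift in the results for single miRNAs was not tested.

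miR-145-5p, a smooth muscle miRNA, had 175663, 155588 and 219955 at day 90, against 231178, 238623 and 246523 at day 30 (log2 fold change -0.39 ± 0.17, limma adjusted p = 0.317). miR-143-3p, from the same transcript, had 643198, 647052 and 878184 at day 90, against 802412, 800782 and 799952 at day 30 (-0.16 ± 0.15, adjusted p = 0.705). Day 90 replicate 3 was the highest of the day 90 libraries in both, and for miR-143-3p it exceeded every day 30 library. The scarcer strand miR-143-5p had 3922, 4175 and 5509 at day 90, against 7231, 6553 and 6255 at day 30, with no overlap (-0.57 ± 0.16, adjusted p = 0.156).

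miR-214-3p, an miRNA of fibroblasts and perivascular cells, had 10161, 11705 and 12317 at day 90, against 12745, 17382 and 18602 at day 30 (log2 fold change -0.50 ± 0.17, limma adjusted p = 0.220). Its groups did not overlap. The endothelial miR-126 had 3 entries tested, all with negative log2 fold changes and a median of -0.32. Its main form, miR-126-3p_R-1, had 38655, 47001 and 50085.5 at day 90, against 61699, 48773 and 59398 at day 30 (-0.32 ± 0.14, adjusted p = 0.328), and overlapped through day 30 replicate 2. Another form, miR-126-3p_R-4, was scarcer (-0.39 ± 0.27, adjusted p = 0.549). limma called 0 of the 3, and 1 had an unadjusted p under 0.05. The endothelial share was 0.621%, 0.720% and 0.731% at day 90, against 1.03%, 0.756% and 0.942% at day 30.

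The miRNAs embedded in the Hox gene clusters, which record position along the body axis, had negative log2 fold changes in 7 of 7 entries, with a median of -0.63 (-0.77 to -0.21 when 1 library was left out, and nearest 0 without day 30 replicate 1). 2 were lower without overlap, beside 13.8% of all entries, and limma called 0 with 1 at an unadjusted p under 0.05. miR-10b had 7498, 13259.7 and 13341 at day 90, against 14048, 22465 and 15602 at day 30 (-0.63 ± 0.25, adjusted p = 0.271). mir-10b-p3 had 41.2, 57.9 and 74.5 at day 90, against 74.7, 126 and 81.8 at day 30 (-0.69 ± 0.37). Both strands were lower in each day 90 library, by a narrow margin, while the abundant miR-10a-5p was near level (-0.08 ± 0.17, adjusted p = 0.913).

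The lists of markers of other tissues held small shares of the values, though miR-133a-3p of striated muscle averaged 4677 at day 90 and 6603 at day 30. Neural miRNAs held between 0.130% and 0.158% at day 90 and between 0.132% and 0.142% at day 30. Epithelial miRNAs held at most 0.008% of the values of a library, miRNAs of liver, gut and pancreas at most 0.027%, and striated muscle miRNAs between 0.086% and 0.129% at day 90 and between 0.123% and 0.164% at day 30. limma called 0 of 3 epithelial, 0 of 4 liver, gut and pancreas, 0 of 6 striated muscle and 0 of 12 neural entries, with unadjusted p under 0.05 in 0, 1, 1 and 1 of them. miR-200b, an epithelial miRNA, had 363, 449 and 296 at day 90, against 135, 153 and 309 at day 30 (log2 fold change 0.97 ± 0.51, adjusted p = 0.395), with day 30 replicate 3 inside the day 90 range. miR-205, the miRNA of stratified epithelium, had 81.5, 43.7 and 59.3 at day 90, against 18.7, 107 and 23.2 at day 30, so the spread lay within day 30.

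The pancreatic acinar miR-217 was at the edge of detection, with 0, 0 and 6.08 at day 90, against 11.03, 12.4 and 5.79 at day 30. miR-192, an miRNA of gut and liver, had 511, 556 and 444 at day 90, against 352, 345 and 393 at day 30 without overlap (log2 fold change 0.46 ± 0.18, limma adjusted p = 0.263). miR-133a-3p, of heart and skeletal muscle, had 4241, 4055 and 5735 at day 90, against 6089.8, 8115 and 5604 at day 30, with overlap (-0.50 ± 0.20, adjusted p = 0.271). miR-194a-5p, often made with miR-192, was higher without overlap (0.32 ± 0.16, adjusted p = 0.395), and the muscle miR-499-5p overlapped (0.43 ± 0.28, adjusted p = 0.526).

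Among the other miRNAs with non-overlapping groups, the higher ones included abundant and scarce species. miR-26b-5p, a widely expressed miRNA that targets EZH2 together with miR-26a, had 27953, 27488 and 29789 at day 90, against 21465, 18679.5 and 20249 at day 30 (log2 fold change 0.50 ± 0.14, limma adjusted p = 0.156, and 0.0337 in the fit of the 6 libraries). miR-221-3p, which restrains the receptor KIT and the cell cycle inhibitor p27, had 12855, 12349.9 and 13236 at day 90, against 9138, 9040.03 and 10546 at day 30 (0.42 ± 0.12, adjusted p = 0.156). mir-106a-p3, from a paralog of the miR-17-92 cluster, had 45.1, 44.7 and 37.96 at day 90, against 12.7, 13.4 and 15.9 at day 30 (1.54 ± 0.37, adjusted p = 0.107, and 0.0211 in the fit of the 6 libraries). These 3 were steady within each age. The other strands miR-26b-3p (0.30 ± 0.18) and miR-221-5p (0.46 ± 0.23) overlapped between the ages.

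Both strands of miR-664, from an intron of RAB3GAP2 in RefSeq's table, were higher in each day 90 library. miR-664-3p had a log2 fold change of 0.52 ± 0.17 (limma adjusted p = 0.220) and miR-664-5p one of 0.70 ± 0.25 (adjusted p = 0.220, and 0.0349 in the fit of the 6 libraries). miR-7142-3p, from MARK2, had 694, 411 and 607 at day 90, against 349, 345 and 298 at day 30 (0.76 ± 0.23, adjusted p = 0.164). miR-7857-3p had 451, 407 and 503 at day 90, against 198, 215 and 147 at day 30 (1.29 ± 0.46, adjusted p = 0.220), and its other strand mir-7857-p5 had 62.3, 50.8 and 51.7 at day 90, against 15.3, 15.3 and 21.0 at day 30. Both strands of miR-7857 were called in the fit of the 6 libraries, with adjusted p of 0.0129 and 0.0159, and were named for that reason.

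The lower ones included miRNAs from introns of known genes. miR-107, from an intron of the pantothenate kinase gene PANK1, had 3439.9, 3629 and 3763 at day 90, against 5963, 4715 and 5089 at day 30 (log2 fold change -0.54 ± 0.15, limma adjusted p = 0.156). mir-383-p5, from SGCZ, had 70.9, 43.7 and 132 at day 90, against 209.6, 240.4 and 218 at day 30 (-1.57 ± 0.39, adjusted p = 0.122, and 0.0416 in the fit of the 6 libraries). miR-551a_R+1, from MEGF6, had 32.6, 41.7 and 33.4 at day 90, against 89.96, 65.8 and 84.7 at day 30 (-1.13 ± 0.32, adjusted p = 0.156). Each day 90 library lay below each day 30 library in all 3.

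mir-125b-1-p3 had 171, 288 and 366 at day 90, against 474, 591 and 555 at day 30, without overlap (log2 fold change -1.03 ± 0.31, limma adjusted p = 0.164). miR-490-3p, an miRNA of smooth muscle, was not called with 9 libraries (-1.76 ± 0.63, adjusted p = 0.222) but was called in the fit of the 6 libraries, with an adjusted p of 0.0111. Its values were 83.4, 146 and 127 at day 90, against 390.4, 339 and 463 at day 30, and no day 90 library came near a day 30 library. miR-455-3p, known from cartilage, had 4413, 5847 and 5140.2 at day 90, against 7047, 7925 and 9419 at day 30 (-0.66 ± 0.27, and adjusted p = 0.0482 in the fit of the 6 libraries).

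The remaining entries named for their call in that fit alone were miR-1388 (log2 fold change 1.01 ± 0.38), miR-7140-3p and miR-10390. miR-7140-3p had 34.5, 25.4 and 83.6 at day 90, against 5.09, 0 and 0 at day 30, and day 90 replicate 3 supplied more than the other two together. miR-10390 had 37.4, 72.2 and 57.0 at day 90, against 107, 151 and 159 at day 30 (-1.33 ± 1.07, limma adjusted p = 0.637 with 9 libraries and 0.0337 with 6). Its groups did not overlap.

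Large, widely expressed families differed in their net shift, and that of the let-7 family was small. The let-7 family, which marks differentiated cells, had 7 positive and 10 negative log2 fold changes among 17 entries and a median of -0.02, which lay just above 0 without day 30 replicate 2 or without day 90 replicate 2 or 3. Of these 4 were higher and 2 lower without overlap, beside 14.1% higher and 13.8% lower over all entries. Its abundant member let-7g had 131989, 128815 and 143367 at day 90, against 106806, 98701 and 105057 at day 30 (0.38 ± 0.13, limma adjusted p = 0.220). let-7f-5p went the same way (0.36 ± 0.13, adjusted p = 0.228). limma called 0 of the 17, and 3 had an unadjusted p under 0.05.

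The proliferation-linked miR-17-92 cluster with its paralogs had a median of 0.08 over 21 entries (-0.03 without day 30 replicate 2). Without overlap 4 were higher and 1 was lower, beside 14.1% higher and 13.8% lower over all entries. limma called 0 of the 21, and 1, mir-106a-p3, had an unadjusted p under 0.05. miR-363 had 46199, 45715 and 45369 at day 90, against 36296, 39411 and 37465 at day 30 (log2 fold change 0.28 ± 0.14, adjusted p = 0.395), while miR-92a overlapped (-0.17 ± 0.21, adjusted p = 0.798). The miR-30 family had 9 positive log2 fold changes among 11 entries and a median of 0.27. limma called 0 of these 11, with 2 at an unadjusted p under 0.05 and 4 higher without overlap, beside 14.1% of all entries.

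The 4 strands of the miR-30 family that were higher without overlap were 3p arms, namely miR-30c-3p and the 3 with the TTTCAGT seed, miR-30a-3p, miR-30e-3p and mir-30d-p3. The median log2 fold change of these 3 was 0.39. miR-30a-3p had 3863, 3518 and 3150.1 at day 90, against 2619, 2370.2 and 2333 at day 30 (log2 fold change 0.52 ± 0.17, limma adjusted p = 0.204). The 5 tested strands with the 5p seed GTAAACA had a median of 0.16, and the abundant miR-30d was level (-0.03 ± 0.13, adjusted p = 0.968). miR-30a-5p had a log2 fold change of 0.30 ± 0.15 with overlapping groups (adjusted p = 0.393).

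The miR-23/24/27 clusters had 4 entries higher and 1 lower without overlap among 11, beside 14.1% higher and 13.8% lower over all entries. The median was 0.24. limma called 0 and 4 had an unadjusted p under 0.05, 3 higher and 1 lower. The entries of the miR-23a hairpin group had positive log2 fold changes in 7 of 7, with a median of 0.37, against 3 of 7 with a median of -0.16 in the miR-23b group, and the miR-24 entries belong to both groups. miR-23a had 82360.3, 76919 and 81712 at day 90, against 66023, 55366 and 65414 at day 30 (0.37 ± 0.13, adjusted p = 0.220). miR-24-2-5p had 119, 123 and 151 at day 90, against 82.3, 88.7 and 86.2 at day 30 (0.60 ± 0.22, adjusted p = 0.248). Both were higher in each day 90 library. The miR-99/100 and miR-125 families had 4 of 15 entries lower and 0 higher without overlap, beside 13.8% lower and 14.1% higher over all entries, and a median of -0.23. Without 1 library the median ran from -0.39, without day 30 replicate 1, to -0.09, without day 90 replicate 1. Leaving out day 30 replicate 2 gave -0.11, day 30 replicate 3 gave -0.15 and day 90 replicate 2 gave -0.14. limma called 0 of these 15 and 2 had an unadjusted p under 0.05. Its smallest p beside mir-125b-1-p3 was that of mir-125a-p3, which had 121, 123 and 112 at day 90, against 171, 247 and 170.1 at day 30 (log2 fold change -0.70 ± 0.25, adjusted p = 0.220).

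**Figure D4:**
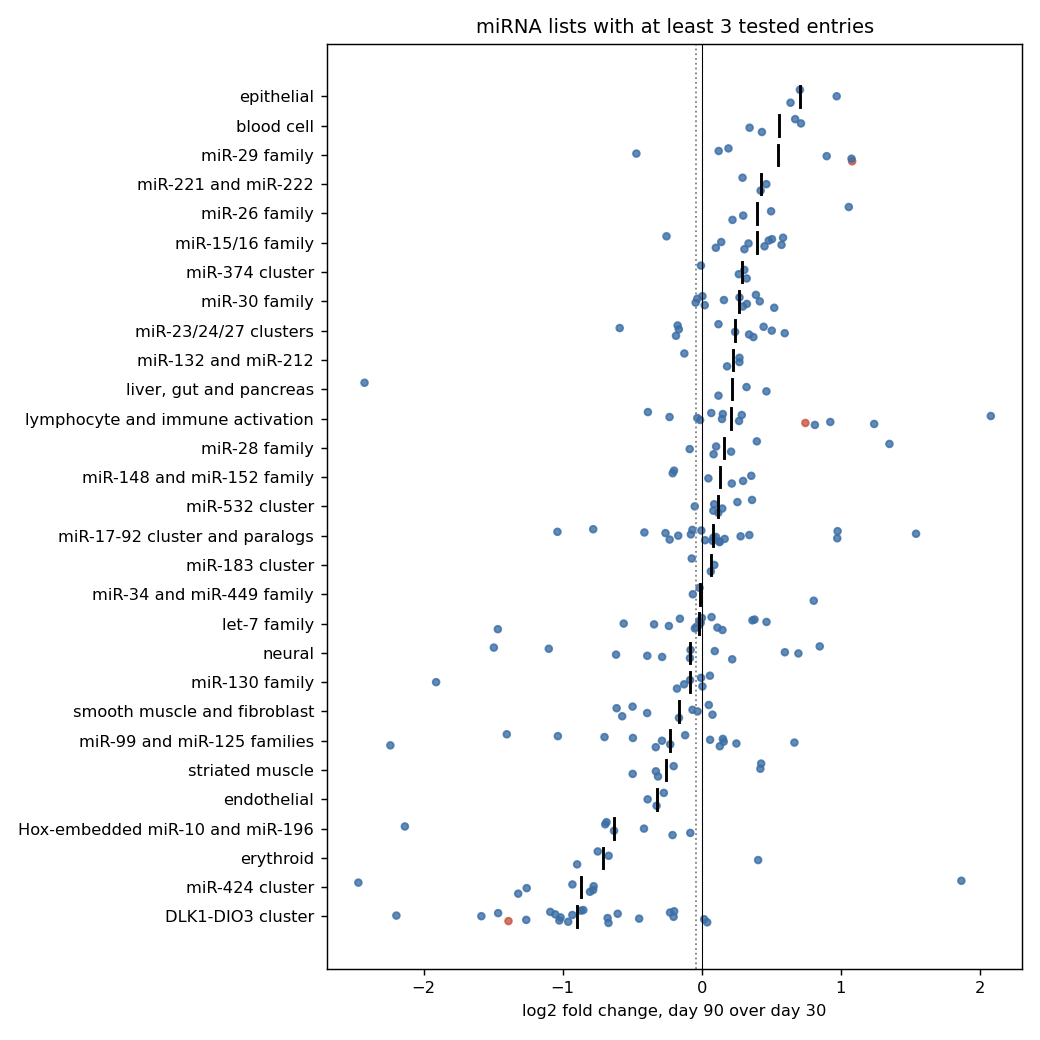
Log2 fold change (day 90 minus day 30) of each tested entry of the lists with at least 3 tested entries, without miR-224 and miR-452, since miR-452 is listed at 0 at day 30. The black bar is the median of a list, the dotted line is the median of all 630 entries tested (-0.04), and red points are called. The lists of the DLK1-DIO3 region, the miR-424 cluster and the red cell miRNAs have medians well to the left, and the miR-29 family lies to the right.

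Both strands of a hairpin are cut from the same precursor, so their differences can be set side by side. Arms were paired by miRNA name, each with its most abundant entry, and an unnamed arm was taken as the opposite of the named one. A name shared by several hairpins, such as miR-29b, can thus pair strands that are not all from 1 hairpin. Among 139 names with both arms tested, the arms had log2 fold changes of the same sign in 106. Where the scarcer arm had a mean of at least 50, the signs were the same in 68 of 87 names. The median absolute difference between the arms was 0.17 in these. Pearson's r between the arms was 0.72 over these 87, a description across names that share libraries and depth. The widest gaps among these included miR-29b (1.08 for the 3p strand and 0.12 for mir-29b-2-p5) and miR-146b (1.24 for miR-146b and 2.08 for mir-146b-p3). Others were miR-2483, named for its gap, with opposite signs (-0.67 for mir-2483-p5 and 0.08 for miR-2483), and miR-29c (0.90 for miR-29c and 0.19 for mir-29c-p5). No difference between arms was tested.

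**Figure D5:**
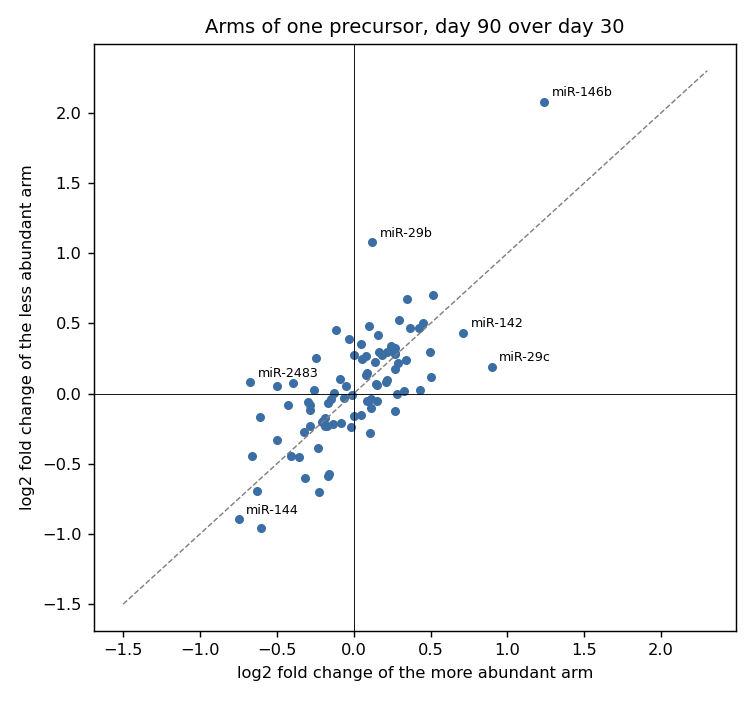
Log2 fold change (day 90 minus day 30) of the more abundant arm (horizontal) against that of the less abundant arm (vertical). Arms are paired by miRNA name, and names whose scarcer arm has a mean of at least 50 are shown. The dashed line marks equal values. Most points follow the line. miR-29b lies above it, since its scarcer strand differed more, and miR-29c lies below it.

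Base composition differed between the directions. The median GC content was 45.5% for the pig miRNAs that were higher without overlap and 54.5% for those that were lower without overlap, beside 47.8% over all tested, and the median length was 22 bases in each. With a correction for GC content the median log2 fold change of all entries was 0.06 in place of -0.04, and miR-323 lost its call (adjusted p = 0.0725). Under this correction miR-370 moved from -1.26 to -1.03 and miR-143-5p from -0.57 to -0.41 on the log2 scale. Away from 0, miR-150 moved from 0.75 to 0.87 and miR-450b-5p from -1.26 to -1.34. What part GC content had in these and the other differences was not tested.

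At day 210 the called miRNAs did not all lie where day 90 had left them. miR-29a-3p had 71341, 69214 and 77751 and miR-150 had 89536, 95280 and 89681 at day 210, so both lay near or above their day 90 values, while miR-184, with 121, 115 and 179, lay between its day 30 and day 90 values. miR-323, with 290.1, 214 and 272, lay between its day 30 and day 90 values too. mir-325-p3, with 32.0, 23.2 and 9.60, overlapped its day 90 values.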

How the data were processed

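Small RNA from spleen was sequenced on an Illumina HiSeq instrument after TruSeq Small RNA preparation, per the labels' protocols, and ACGT101-miR removed adapter dimers, junk, common RNA families and repeats. Not given in the sources used here are the scaling, the aligner, the genome build and the miRNA database, so no positions are printed. The values are a signal, the authors' normalised read number per mature sequence, per the file headers, and not raw counts. Names are written without the species prefix and, unless needed to tell forms apart, without suffixes.

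Of 980 entries, 6 that repeated the values of another with its sequence or name were dropped. Steps of a fixed size per library accounted, to within 0.01 of a step, for 87.7% to 90.8% of the values above 0, and depth rests on reading the commonest low value as 5 reads. No counting intervals are given because depth is estimated, and low values rest on few reads. Entries that reached 5 in 3 or more of the 9 libraries were tested with limma 3.58.1 (R 4.3.3) on log2(value + 1), with 1 mean for each age, all 9 libraries and trended empirical Bayes moderation. The procedure was tested on simulated data. An exact permutation test of 3 libraries against 3 cannot go below p = 0.1.

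Named miRNAs are those called, the 12 higher and 12 lower ones with the smallest p, a mean of at least 50 and no overlap, the 2 smallest p and the most abundant entry of the lists described, the 6 most abundant, the other arms of these, and the members of the shared seeds described. Others are said to be chosen after their values were seen. Both strands of 1 hairpin that the rule selects are not reported here. All members and lists were chosen with earlier results of these data known. Lists follow family, cluster or cell type by name, and 208 of 257 hairpin names matched RefSeq's gene table (neighbours lie within 10000 bases). Alternatives changed the pseudocount, filter, scaling, trend, libraries, weights, GC correction, floor and entries tested. A list median under an alternative covers the entries which that alternative still tested.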

Additional observations from a re-analysis of the deposited data

How the results depend on the processing

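The 5 higher and 2 lower calls moved with several choices. The higher count was 3 with a stricter filter and 3 with values rescaled to equal library sums, 8 with every value below a common floor of 8.001 raised to it, 16 with only the 2 ages, 36 with array weights, and 34 with array weights and only the 2 ages, a combination chosen after seeing the data. The lower count was 1 with a pseudocount of 0.5, 1 with no filter, 1 with a GC correction, 5 with the common floor, 12 with only the 2 ages, 33 with array weights and 36 with both. Leaving out 1 library gave between 1 and 12 higher and between 0 and 7 lower calls. Day 210 replicate 3 had an array weight of 0.196, against 0.862 to 2.71 in the other libraries. The cause of these changes was not tested.

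With the replicate number as a block the calls were 1 higher and 0 lower, by limma. Deviations from the age means correlated weakly between same-numbered libraries of the ages (0.0115, -0.102 and 0.0579). Differently numbered libraries gave -0.094 to 0.0779. With so few libraries these correlations cannot tell whether the numbers mark something shared. miR-29a-3p kept its call under the block.

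Among the values of the named miRNAs, 2088 kept their direction and side of the threshold, 135 gained a call, 35 lost one and 4 changed sign. These sign changes were in values near 0: miR-10a-5p, at 0.016 without day 30 replicate 3 and as low as -0.22 when another library was left out, and miR-30d, at 0.020 with array weights, 0.053 with the GC correction and 0.029 with array weights and only the 2 ages. Of 30 list medians 7 changed sign under at least 1 alternative, those of the let-7, miR-130, miR-17-92, miR-183, miR-34 and miR-449, miR-532 and neural lists. Low depth limits entries with values under about 50, whose SE is widest.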
